A study of Mus musculus with 6 samples.

Results

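The cytosolic ribosomal proteins are the protein components of the ribosome that translates nuclear-encoded mRNAs. They were taken as every array row whose target name consists of RPL or RPS and a protein number, with the stalk proteins RPLP0 to RPLP2 and RPSA included and the RPS6 kinases left out. The rule found 68 genes among the 30854 target names of the array, measured by 102 of its 45281 probes. *Rpl5*, *Rpl7*, *Rpl10*, *Rpl10l*, *Rpl11*, *Rpl26l1*, *Rps27* and *Rps4l* were not analysed here.

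Each ribosome joins a small subunit, which reads the mRNA, to a large subunit, which forms the peptide bond, and each subunit is assembled in the nucleolus from ribosomal RNA and ribosomal proteins. The mRNAs of these proteins are among the most abundant of a growing cell and start with a pyrimidine tract, the 5′ TOP motif, through which mTOR signalling controls their translation. Some ribosomal proteins have paralogues with restricted expression, such as RPL3L, which takes the place of RPL3 in mature striated muscle.

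Gene expression was measured on the 6 arrays of a single Illumina mouse BeadChip in C2C12 cells, a mouse myoblast line that fuses into myotubes when serum is withdrawn. The cells were transfected in suspension with 60 nM of a scramble siRNA or of an siRNA against *Dj1* (labelled siDJ-1), and differentiation was started 48 h later and lasted 4 days. Each group held 3 arrays, all from this single line and, per the study's methods, with 1 siRNA per target. Nothing in the labels says whether the arrays of a group came from separate cultures, so the p-values measure only the spread between these samples, and 3 arrays per group limit the precision.

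The siRNA target was examined first. *Park7*, which encodes DJ-1, had log2 intensities of 13.59, 13.37 and 13.63 in scramble cells and of 12.48, 12.49 and 12.15 after *Dj1* knockdown. Every knockdown array lay below every scramble array. The log2 fold change was -1.16 ± 0.14 (SE, n = 3 per group; limma, adjusted p = 0.00344), so that 44.7% of the scramble intensity remained.

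Of the 102 ribosomal protein probes, 87 probes of 61 genes were detected on at least 3 arrays and tested. The other 15 probes, which included every probe of *Rpl6*, *Rpl17*, *Rpl39l*, *Rps18*, *Rps20*, *Rps23* and *Rpsa*, stayed near background and were not tested. Among the 87 tested probes, 9 were higher and 4 were lower in *Dj1* knockdown cells at an adjusted p under 0.05 (limma with Benjamini-Hochberg adjustment over all 17890 tested probes), and 74 did not pass the test. Over all tested probes, 30.1% passed, 16.5% as higher and 13.6% as lower, against 10.3% and 4.6% of the ribosomal protein probes. In this fit the ribosomal protein shares were thus below those of the whole array, which held under every alternative for the lower probes but not for the higher ones.

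Small shifts were nevertheless spread across the set. The log2 fold change was positive for 68 of the 87 probes, with a median of 0.16 and a middle range of 0.04 to 0.25, against a median of 0.05 over all tested probes. In 45 of the 87 probes all knockdown arrays lay above all scramble arrays, a pattern found in 26.5% of all tested probes, and in 9 they lay below, as in 22% of all tested probes. Small and large subunit proteins had the same median of 0.16, over 33 and 50 tested probes. Because bulk RNA was measured, fewer cells of a type and less RNA per cell cannot be told apart in any of these values.

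**Figure D1:**
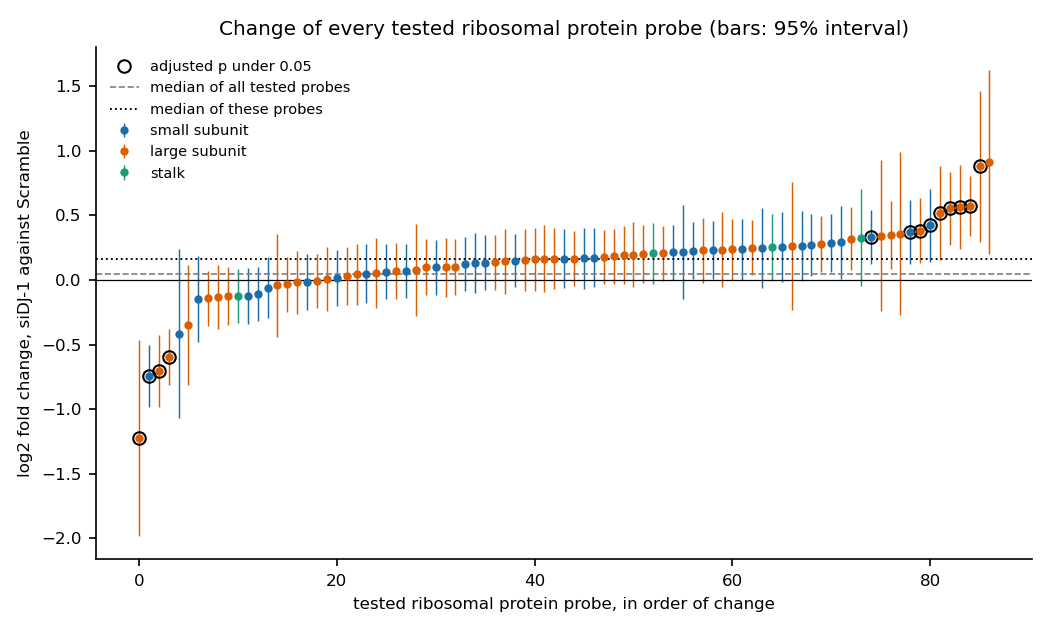
Log2 fold change between siDJ-1 and scramble arrays (y axis) for each of the 87 tested ribosomal protein probes in order of change (x axis), with the 95% interval of the limma fit and n = 3 arrays per group. Most points lie slightly above 0, around a median of 0.16, and the 13 ringed probes passed the threshold, 4 of them below 0.

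The count of higher probes depended strongly on how the arrays were scaled to each other. Quantile normalization, used throughout unless stated, gives every array the same distribution of intensities. When the arrays were matched at their 75th percentile instead, 41 of the 87 probes (47.1%, against 18.3% of all tested probes) were higher and 4 were lower, and the median log2 fold change was 0.36. Without background correction that scaling gave 54 higher probes (62.1%, against 20.3%), while quantile normalization gave 21 (24.1%, against 18.8%) and cyclic loess with background correction gave 9 (10.3%, against 14.2%). The share of higher ribosomal protein probes was therefore above that of the whole array under 3 of these scalings and below it under cyclic loess. The number of lower probes was 4 under each of these scalings, and the median was positive in each, from 0.16 to 0.36.

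This dependence was seen among bright and middling probes. Ribosomal proteins supplied 27 of the 100 brightest probes and 51 of the 500 brightest. Under quantile normalization, the 42 ribosomal protein probes with a mean log2 intensity of 14 or more had a median change of 0.13, and 1 of them passed the test. Under the percentile shift their median was 0.38 and 23 were higher. The 27 ribosomal protein probes between 10 and 14 went from 5 to 14 higher probes (18.5% to 51.9%) and from a median of 0.23 to 0.38. The 4235 other probes of that class went from 17.1% to 25.2% higher, with medians of 0.01 and 0.12. The 228 other probes at 14 or more moved in the same direction, from a median of 0.01 to a median of 0.26. Their higher probes went from 21 to 73, or from 9.2% to 32%. The share among the 42 ribosomal protein probes went from 2.4% to 54.8%, from below that of the other bright probes to above it. Neither scaling was tested against a known amount of RNA, so the size of the general shift was not settled by these arrays.

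**Figure D2:**
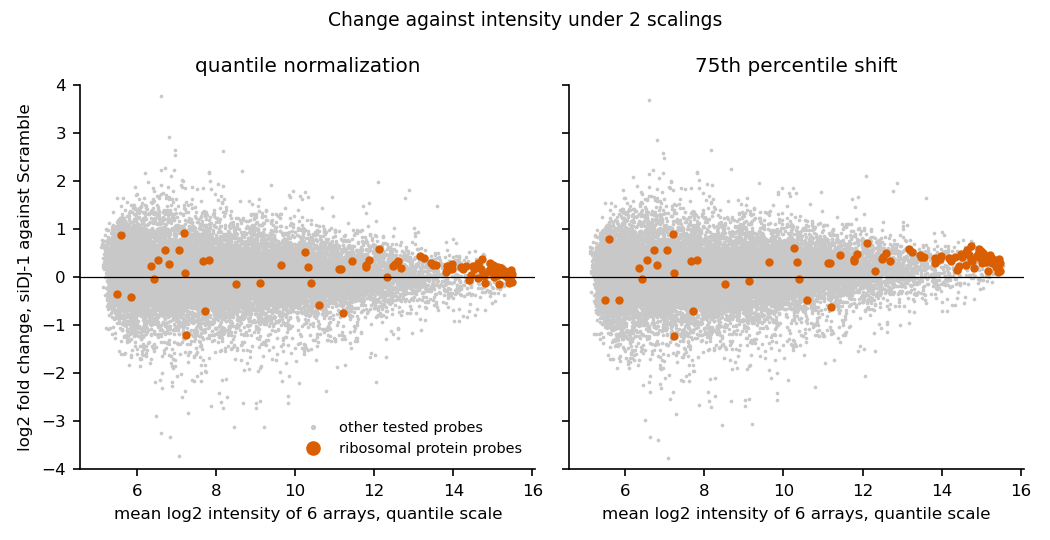
Log2 fold change between siDJ-1 and scramble arrays (y axis) against the mean log2 intensity of all 6 arrays (x axis) for ribosomal protein probes and all other tested probes, after quantile normalization (left) and after a 75th percentile shift (right). At 14 or more on the x axis the ribosomal protein probes have a median of 0.13 on the left and of 0.38 on the right, and the other probes have medians of 0.01 and 0.26.

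Shares of the raw signal had the same direction. Ribosomal protein probes made up 4.44%, 4.76% and 4.66% of the summed raw signal in scramble cells and 5.23%, 5.19% and 5.57% in *Dj1* knockdown cells. Every knockdown array held a larger share than every scramble array, but such a share also moves with the other bright probes in the sum. Bead noise also differed between the groups. The median relative standard error of a ribosomal protein probe over its beads was 4.62%, 3.66% and 4.33% in scramble cells and 3.28%, 3.11% and 3.22% in knockdown cells. Over all tested probes it was 6.17%, 4.51% and 5.41% against 4.29%, 3.77% and 3.83%, so the difference was not particular to ribosomal proteins. The part of bead noise in these results was not tested.

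The markers of muscle differentiation moved as well. All 13 myotube marker genes were detected, and of their 23 tested probes 11 were lower (47.8%, against 13.6% of all tested probes) and 2 were higher (8.7%, against 16.5%) in *Dj1* knockdown cells, with a median log2 fold change of -0.38 that was -0.20 without scramble replicate 1. Their summed intensity was 261400, 259500 and 256100 in scramble cells and 210700, 224400 and 195300 in knockdown cells, and skeletal actin *Acta1* was the brightest. The sarcomeric *Actn2* fell by 1.12 and 1.03 on its probes and *Myod1* by 0.90 on the log2 scale, while titin *Ttn* gave probes in both directions, from -0.76 to 1.77. The desmin gene *Des* fell by 0.56, and *Myog* did not pass the test on either probe, with changes of -0.11 and 0.22. The number of lower myotube probes was 7 without scramble replicate 3 (30.4%, against 10.1%) and 6 and 4 without siDJ-1 replicates 1 and 3 (26.1% and 17.4%, against 6.9% and 7.5%), and 1 probe was higher without any single array other than scramble replicate 3. *Actn2* lost both calls without scramble replicate 3 or siDJ-1 replicates 1 or 3 (adjusted p from 0.0526 to 0.0990), and its second probe, ILMN_2797061, also without scramble replicates 1 or 2 (0.0840 and 0.0610). That probe lost its call under the percentile shift too (-0.92, adjusted p = 0.0529).

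Of 10 probes for proliferating myoblast markers, 3 were lower (30%, against 13.6% of all tested probes) and 0 were higher (0%, against 16.5%). At an unadjusted p under 0.05 (limma) there were 6. The lower probes were those of *Mcm5*, *Pcna* and *Ccnb1*, with log2 fold changes of -0.94, -0.57 and -0.57. The median over the 10 probes was 0.16, but 0.05 without scramble replicate 1 and -0.06 with the stricter filter, which called 2 probes higher. In 4 probes, of *Cdk1*, *Mki67* and *Top2a*, all knockdown arrays lay above all scramble arrays without passing the test (40%, against 26.5% of all tested probes with that pattern). *Ccnb1* lost its call without siDJ-1 replicate 1 or 3 (adjusted p = 0.0570 and 0.0550). Their summed intensity was 6148, 6708 and 6224 in scramble cells and 5369, 6105 and 5643 in knockdown cells, with *Cdk1* the brightest, and *Myf5* and *Pax7* were not detected on enough arrays. No marker of adipocytes or endothelial cells was detected on enough arrays to be tested, *Cd68* alone was tested among macrophage markers, and among fibroblast markers *Pdgfra* (-0.58, adjusted p = 0.0493) and *Dpt* (0.44, not past the threshold) were tested. Among the leave-one-out fits the *Pdgfra* call held only without siDJ-1 replicate 2 (adjusted p from 0.0757 to 0.123 in the other 5), and it was also lost under the percentile shift (0.0639). The fibroblast markers summed to 750.5, 811.4 and 853 in scramble cells and to 609.9, 867.2 and 468.9 in knockdown cells, and *Cd68* had 28.7, 53.0 and 27.5 against 52.7, 45.2 and 51.8. The part of differentiation state or cell mixture in the ribosomal protein values was not tested.

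The falls were found in a paralogue of a core protein, in a ubiquitin fusion gene and in the muscle paralogue. *Rps27a* encodes ubiquitin fused to a protein of the small subunit. Its probe measured 11.49, 11.65 and 11.62 in scramble cells and 10.77, 10.93 and 10.82 after *Dj1* knockdown. The groups were clearly apart, with a log2 fold change of -0.74 ± 0.10 (limma, adjusted p = 0.00439), which left 59.7% of the scramble intensity.

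*Rpl7l1*, a paralogue of the large subunit gene *Rpl7*, was measured by a pair of probes. The first, ILMN_1249606, gave 10.96, 10.84 and 10.89 in scramble cells and 10.34, 10.29 and 10.28 in knockdown cells. The second, ILMN_2661407, gave 8.28, 8.0 and 7.95 against 7.34, 7.4 and 7.37. Both probes separated the groups fully. Their log2 fold changes were -0.60 ± 0.09 and -0.71 ± 0.12 (limma, adjusted p = 0.00607 and 0.00733). Under the percentile shift without background correction they were -0.50 and -0.45, still past the threshold.

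*Rpl3l* encodes the RPL3 paralogue of mature striated muscle. Its log2 intensities were 8.07, 7.51 and 7.98 in scramble cells and 6.26, 7.35 and 6.29 in DJ-1-deficient cells. Knockdown replicate 2 lay just under scramble replicate 2, and the other knockdown arrays lay far below. The log2 fold change was -1.22 ± 0.32 (limma, adjusted p = 0.0302), the largest fall of the set in this fit, with a wide 95% interval of -1.98 to -0.46. Without background correction the change was -0.63, and under the percentile shift without that correction *Rps27a* fell slightly more (-0.64 against -0.6325). The *Rpl3l* call was lost without scramble replicate 1 or 3 and without siDJ-1 replicate 1 or 3 (adjusted p = 0.0671, 0.0752, 0.0955 and 0.102). *Rpl3* itself measured 15.23, 15.26 and 15.22 against 15.25, 15.29 and 15.38, with overlapping groups and a log2 fold change of 0.07 (adjusted p = 0.607), and it passed only under the percentile shift without background correction (0.26, adjusted p = 0.0472).

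Among the rises, *Rpl22* was the most stable. This large subunit gene encodes an RNA-binding protein, and its probe gave 11.84, 11.77 and 11.88 in scramble cells and 12.48, 12.32 and 12.41 in knockdown cells. All knockdown arrays were higher, with a log2 fold change of 0.57 ± 0.10 (limma, adjusted p = 0.00802). Its paralogue *Rpl22l1* gave 10.04, 9.89 and 10.09 against 10.73, 10.22 and 10.62. These groups were also apart, but the knockdown arrays were more spread, and the log2 fold change was 0.52 ± 0.15 (adjusted p = 0.0444). The *Rpl22l1* call was lost without any of the scramble replicates 1 to 3 (adjusted p = 0.0713, 0.111 and 0.0710) and without siDJ-1 replicate 1 or 3 (0.137 and 0.131). Both members of this pair were thus higher, whereas *Rpl3l* fell and *Rpl3* did not pass the test. The difference between these pairs was not tested.

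**Figure D3:**
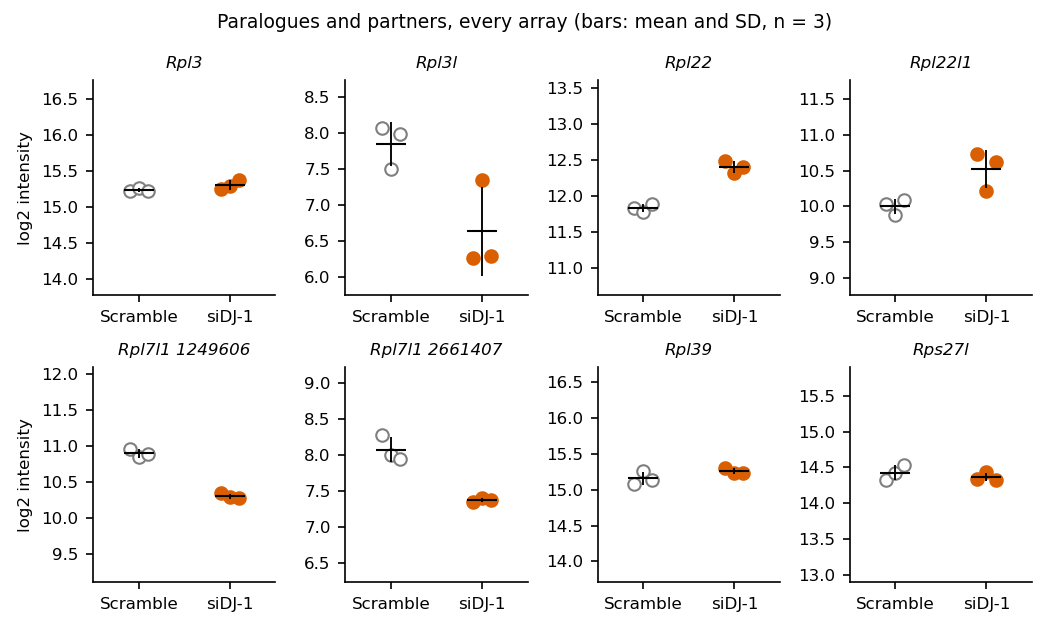
Log2 intensity (y axis) on each scramble and siDJ-1 array for ribosomal protein paralogues and the partners that were tested, with the mean and SD of n = 3 arrays per group. Each panel spans the same range, and *Rpl3l* and both probes of *Rpl7l1* lie lower and *Rpl22* and *Rpl22l1* higher in siDJ-1 cells.

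The remaining paralogues did not pass the test. *Rps27l* measured 14.32, 14.43 and 14.53 in scramble cells and 14.34, 14.43 and 14.33 in knockdown cells, and its change of -0.06 (adjusted p = 0.693) turned to 0.13 under the percentile shift, also without passing the test. *Rpl39* changed by 0.10 (adjusted p = 0.473) with overlapping groups and passed only under the percentile shift without background correction (0.28, adjusted p = 0.0347), and *Rpl39l* was not detected on enough arrays. *Rps4x*, the X-linked protein of the small subunit, measured 14.76, 14.82 and 14.92 against 14.99, 14.96 and 15.06. Its groups were apart but close, and its change of 0.17 did not pass the test (adjusted p = 0.219) except under the percentile shift (0.46, adjusted p = 0.0286), also without background correction, and with a prior variance that follows the intensity.

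The promoters of 5 genes whose arrays separated are shown, so that the falling paralogues can be set beside genes that rose. They come from RefSeq (mouse build GRCm38.p6), where 53 of the 68 genes were matched by symbol to a promoter and 15, among them *Rps27a*, *Rpl21* and *Rpl3*, were not, and each runs from 100 bases before to 20 bases after the first transcription start listed for the gene. Capitals mark CCGGAAG or its reverse complement CTTCCGG, a core recognised by ETS family factors, and runs of at least 8 bases that are all C or T on the gene's strand, as in a TOP tract. CTTCCGG can share bases with such a run.
*Rpl3l*, chr17:24727726-24727845, plus strand: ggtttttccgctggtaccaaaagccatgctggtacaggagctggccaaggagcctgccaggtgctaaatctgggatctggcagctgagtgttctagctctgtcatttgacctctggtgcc
*Rpl7l1*, chr17:46782637-46782756, minus strand: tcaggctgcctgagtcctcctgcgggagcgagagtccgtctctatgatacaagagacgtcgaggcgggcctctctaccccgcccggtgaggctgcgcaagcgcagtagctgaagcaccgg
*Rpl22*, chr4:152325626-152325745, plus strand: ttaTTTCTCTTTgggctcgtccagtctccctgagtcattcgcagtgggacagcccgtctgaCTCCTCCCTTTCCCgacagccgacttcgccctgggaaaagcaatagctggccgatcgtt
*Rpl22l1*, chr3:28805408-28805527, plus strand: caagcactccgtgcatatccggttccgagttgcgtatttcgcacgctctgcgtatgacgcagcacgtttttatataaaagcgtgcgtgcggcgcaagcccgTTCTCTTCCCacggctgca
*Rpl19*, chr11:98026610-98026729, plus strand: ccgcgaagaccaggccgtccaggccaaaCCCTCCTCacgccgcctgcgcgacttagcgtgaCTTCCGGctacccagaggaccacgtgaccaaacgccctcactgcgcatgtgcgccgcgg

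Neither pattern was found in these 120 bases of *Rpl3l* or *Rpl7l1*, whereas a pyrimidine run lay in those of *Rpl22*, *Rpl22l1* and *Rpl19*. This contrast depends on the length set for a run and was not tested. Runs just under that length lay in *Rpl3l* (tttttcc) and in *Rpl7l1* (tcctcct and cctctct). The run of *Rpl22l1* began 1 base after the start, and *Rpl19* also had CTTCCGG. The runs of *Rpl22* and *Rpl19* lay before the start, outside a transcript that begins there. *Rpl37*, whose only probe past the threshold was detected on 1 scramble array, had no pyrimidine run and is not counted with the rises here. Over all listed starts, CCGGAAG on either strand was present in 17 of the 53 ribosomal protein genes (32.1%) and in 6.6% of the 27025 genes with a promoter entry. A pyrimidine run was present in 37 of the 53 (69.8%) and in 45.9% of all genes. These matches describe the sequences and do not locate binding sites, and *Rpl3l* had a run at its other listed start.

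Rises among the small subunit proteins included those of *Rps3* and *Rps16*. *Rps3*, which lines the mRNA entry channel, measured 12.96, 12.93 and 12.998 in scramble cells and 13.36, 13.22 and 13.57 in knockdown cells on ILMN_2594103. The knockdown arrays were all higher, by 0.42 ± 0.12 (limma, adjusted p = 0.0372), and among the leave-one-out fits the call held only without siDJ-1 replicate 2, while it held under every scaling. Its second probe, ILMN_2637639, also had all knockdown arrays above all scramble arrays, but its change of 0.26 passed only in alternatives, among them the percentile shift (0.44, adjusted p = 0.0435), and not in this fit (adjusted p = 0.124). *Rps16* measured 14.65, 14.54 and 14.44 against 14.93, 14.83 and 14.99. It was the only one of the 42 ribosomal protein probes at 14 or more to pass the test in this fit (0.37 ± 0.10, adjusted p = 0.0368). That is 2.4%, against 17.4% of all tested probes at 14 or more. When the background was not corrected, 6 of the 42 were higher under quantile normalization (14.3%, against 16.2% of the other bright probes). Under the percentile shift 31 were higher (73.8%, against 45.2%). Under both scalings 0 of the 42 were lower, against 18% and 6.1% of the other bright probes. Leaving out any array but siDJ-1 replicate 2 gave *Rps3* an adjusted p from 0.0658 to 0.0980, and leaving out any array but scramble replicate 1 gave 0.0556 to 0.117 for *Rps16*.

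*Rps6*, the substrate of the S6 kinases, measured 13.72, 13.82 and 13.81 in scramble cells and 13.90, 13.86 and 13.88 in knockdown cells. The groups did not overlap, but the change of 0.10 did not pass the test (adjusted p = 0.442) here or under the percentile shift (0.28, adjusted p = 0.0886). Neither probe of *Rpsa*, the laminin receptor protein of the small subunit, was detected on enough arrays to be tested.

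In the large subunit, rises were also found for *Rpl19*, *Rpl21*, *Rpl27a* and *Rpl37*. *Rpl19* measured 13.03, 13.12 and 13.05 in scramble cells and 13.34, 13.42 and 13.59 in knockdown cells. All knockdown arrays were higher, by 0.38 ± 0.11 (limma, adjusted p = 0.0357), but the call was lost whichever of the 6 arrays was left out (adjusted p from 0.0637 to 0.105) and with cyclic loess. The other 3 rises came from probes with low signal, and further probes of the same genes gave other values.

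*Rpl27a* had 4 tested probes, and the one past the threshold, ILMN_1221403, measured 6.79, 6.90 and 6.67 in scramble cells and 7.38, 7.46 and 7.19 in knockdown cells. Its change was 0.55 ± 0.12 (limma, adjusted p = 0.0161), while the others changed by 0.35, 0.25 and 0.10 without passing the test. All 4 were positive. *Rpl21* had a probe past the threshold, with 6.42, 6.25 and 6.65 against 6.94, 6.91 and 7.16 (0.56 ± 0.14, adjusted p = 0.0236), and 2 others at 0.34 and 0.91 that did not pass. *Rpl37* was the least uniform. Its probe ILMN_1236446 measured 5.15, 5.60 and 4.73 against 5.75, 6.07 and 6.29 (0.88 ± 0.24, adjusted p = 0.0365), and ILMN_2696977 measured 15.33, 15.45 and 15.41 against 15.35, 15.37 and 15.37 (-0.04, adjusted p = 0.798, and up to 0.20 under the percentile shift, not past the threshold). The first was detected on 1 scramble array and on all 3 knockdown arrays, so it was tested only because of the knockdown group, and its fold change is measured against background. Without background correction the change of the first was 0.30 and that of the *Rpl21* and *Rpl27a* probes 0.25 and 0.28, so the sizes of these low-signal rises depended on that step. *Rpl27a* lost its call without siDJ-1 replicate 1 (adjusted p = 0.0629), *Rpl21* without scramble replicate 2 or siDJ-1 replicates 1 or 3 (0.0603, 0.0663 and 0.0782), and *Rpl37* without any array but scramble replicate 2 (0.0551 to 0.120) and with cyclic loess.

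**Figure D4:**
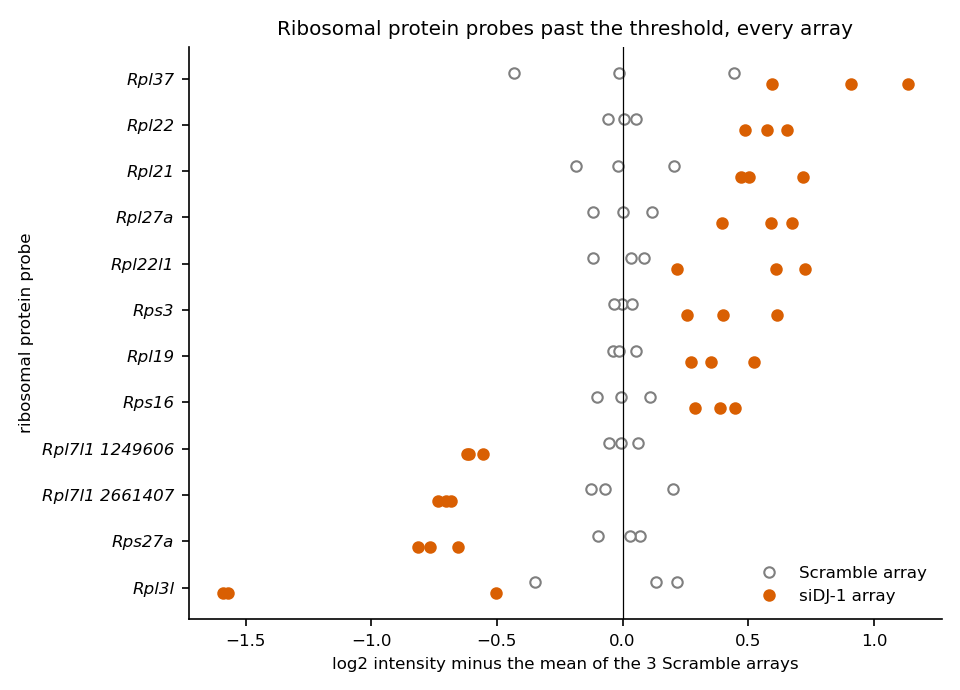
Log2 intensity minus the mean of the 3 scramble arrays (x axis) on every array for 12 ribosomal protein probes past the threshold (y axis), open for scramble and filled for siDJ-1. The groups do not overlap for any of these probes, and *Rpl3l* and *Rpl37* show the widest spread between arrays.

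Only 4 of these 13 calls were made in each of the 15 alternative fits, which were *Rpl22* as higher and *Rps27a* and both probes of *Rpl7l1* as lower. The adjusted p ranged from 4.2e-05 to 0.0404 for *Rpl22*, from 1.48e-05 to 0.0256 for *Rps27a*, and from 9.82e-05 to 0.0354 over both probes of *Rpl7l1*. All 13 probes had the same sign in every fit that tested them. The number of higher probes was 7, 3 and 4 without scramble replicate 1, 2 or 3 and 1, 5 and 2 without siDJ-1 replicate 1, 2 or 3. These were 1.1% to 8.0% of the ribosomal protein probes, below the 7.3% to 16.4% of all tested probes in each of the 6 fits. The number was 37 (42.5%, against 19.3%) when limma's prior variance followed the mean intensity. The number of lower probes was 3 or 4 in all 6 leave-one-out fits.

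The stalk of the large subunit, which recruits the translation factors, had 0 probes past the threshold among the 4 tested (limma, also 0 at an unadjusted p under 0.05). Over all tested probes 30.1% passed. *Rplp0*, a frequent reference gene, changed by 0.20 and 0.33 on its probes (adjusted p = 0.167 and 0.162). *Rplp2* measured 14.81, 14.81 and 15.02 in scramble cells and 15.15, 15.04 and 15.21 in knockdown cells, a change of 0.25 (adjusted p = 0.125) that passed the test under the percentile shift (0.53, adjusted p = 0.0264), also without background correction, and with a prior variance that follows the intensity. *Rplp1* had the opposite sign, with 15.47, 15.52 and 15.45 against 15.35, 15.34 and 15.38. Its groups did not overlap, but its change of -0.12 did not pass the test (adjusted p = 0.325) and became 0.10 under the percentile shift.

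Of the ribosomal proteins often used as reference genes, *Rpl19* was past the threshold as described, and *Rps18* was not detected on enough arrays. *Rpl13a* measured 11.58, 11.74 and 11.69 in scramble cells and 11.98, 11.82 and 11.92 in knockdown cells. The groups were apart, but the change of 0.24 did not pass the test (adjusted p = 0.119). *Rpl32* measured 14.99, 14.88 and 14.86 against 15.004, 15.01 and 15.01, barely apart, with a change of 0.10 (adjusted p = 0.453). Under the percentile shift *Rpl13a* and *Rpl32* passed the test (adjusted p = 0.0385 and 0.0304), and both were positive under every scaling.

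When the probes of each gene were averaged before the test, 8 of the 61 genes were higher and 3 were lower, against 18.4% and 14.5% of all 12771 genes. The median over the 61 genes was 0.16. *Rps27a*, *Rpl7l1* and *Rpl3l* were again the genes that fell. *Rps3* and *Rpl37* were no longer past the threshold (adjusted p = 0.0522 and 0.0638), and *Rpl26*, a large subunit protein, was added with a change of 0.28 (adjusted p = 0.0471). *Rpl26* was chosen after its values were seen.

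Genes that build ribosomes leaned downwards. Of 86 tested probes for ribosome assembly factors, 32 were lower (37.2%, against 13.6% of all tested probes) and 2 were higher (2.3%, against 16.5%), with a median log2 fold change of -0.32. The largest fall was in *Pes1*, a factor of large subunit maturation, which measured 9.23, 9.81 and 9.56 in scramble cells and 7.11, 7.31 and 6.66 in knockdown cells (-2.50 ± 0.22, limma, adjusted p = 0.00268). *Nop56*, a core protein of box C/D small nucleolar particles, fell by 2.13, and *Heatr1*, a component of the small subunit processome, fell by 1.61 on ILMN_1214036. The higher probes were those of *Imp3*, a protein of the U3 small nucleolar particle, at 0.87 and of *Rrs1*, which acts in 5S particle assembly and was detected on 1 scramble array only, at 0.52. The number of lower probes was 25 to 39 without any single array other than siDJ-1 replicates 1 and 3, and 19 and 21 without these (22.1% and 24.7%, against 6.9% and 7.5%). Among the leave-one-out fits *Rrs1* kept its call only without scramble replicate 1 (adjusted p from 0.0896 to 0.127 in the others), and it lost the call under every other scaling (0.109 to 0.150).

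RNA polymerase I, which transcribes the ribosomal RNA genes, had probes in both directions, with 5 higher and 4 lower of 18 (27.8% and 22.2%, against 16.5% and 13.6% of all tested probes). *Polr1e*, a subunit of the enzyme, fell by 1.49, the promoter-binding factor *Ubtf* by 1.10 and the largest subunit *Polr1a* by 0.76 on the log2 scale. *Taf1d*, of the selectivity factor, rose by 0.75 and 0.70 on its probes, and *Polr1c*, a subunit shared with RNA polymerase III, by 0.57. Without siDJ-1 replicate 1, 2 or 3 the counts were 3, 3 and 2 higher (16.7%, 16.7% and 11.1%, against 7.3%, 11.7% and 7.7%) and 1, 3 and 1 lower (5.6%, 16.7% and 5.6%, against 6.9%, 11.5% and 7.5%). *Ubtf* and *Polr1a* lost their calls without siDJ-1 replicate 1 (adjusted p = 0.0503 and 0.0747) or 3 (0.0599 and 0.0812), *Polr1a* also without scramble replicate 2 (0.0526), and the second *Taf1d* probe without siDJ-1 replicate 2 or 3 (0.0557 and 0.0793).

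Translation factors were mixed. Of 53 initiation factor probes, 6 were higher (11.3%, against 16.5% of all tested probes) and 11 lower (20.8%, against 13.6%), with a median of -0.05 that became 0.04 under the percentile shift and -0.02 without scramble replicate 2. That shift gave 10 higher (18.9%, against 18.3%) and 9 lower (17%, against 11.9%). Without background correction it gave 12 higher (22.6%, against 20.3%) and 13 lower (24.5%, against 14.9%). *Eif5*, the GTPase activator of initiation, fell on 3 probes by 0.94, 0.79 and 0.60, whereas the poly(A)-binding *Pabpc1*, the helicase cofactor *Eif4b* and the helicase *Eif4a2* rose by 0.85, 0.79 and 0.70. *Pabpc1* rose on 1 of 3 probes, and that call was lost without scramble replicate 1 or siDJ-1 replicates 1 or 3 (adjusted p = 0.0504, 0.0754 and 0.0650). The number of lower initiation probes was 5 and 6 without siDJ-1 replicates 1 and 3 (9.6% and 11.5%, against 6.9% and 7.5%) and 7 without scramble replicate 3 (13.2%, against 10.1%). Among 17 probes for elongation and termination, 1 was higher (5.9%, against 16.5% of all tested probes) and 5 were lower (29.4%, against 13.6%). The higher one was 1 of 3 probes of *Eef1a1*, at 0.92. The lower ones included *Eef1d* at -0.70 and *Eif5a* at -0.45, -0.38 and -0.37. The count of 5 lower probes was not stable. It was 3, 1 and 1 without scramble replicate 1, 2 or 3 (17.6%, 5.9% and 5.9%, against 13.7%, 9.5% and 10.1%). Without siDJ-1 replicate 1, 2 or 3 it was 0, 2 and 1 (0%, 11.8% and 5.9%, against 6.9%, 11.5% and 7.5%). Under the percentile shift 2 probes were higher (11.8%, against 18.3%) and 1 was lower (5.9%, against 11.9%). *Eif5a* was then no longer past the threshold on ILMN_2678828 and ILMN_1251631 (adjusted p = 0.0806 and 0.138). Without background correction that shift gave 6 higher (35.3%, against 20.3%) and 4 lower (23.5%, against 14.9%). *Eef1a1* lost its call without siDJ-1 replicate 2 or 3 (adjusted p = 0.0664 and 0.0797).

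The other genes with a known 5′ TOP motif resembled the ribosomal proteins in sign. Of 35 tested probes, 8 were higher (22.9%, against 16.5% of all tested probes) and 1 was lower (*Eef1d*, 2.9% against 13.6%), with a median log2 fold change of 0.21, and all 35 were detected on every array. *Hnrnpa1*, an RNA-binding protein of splicing, measured 7.15, 7.36 and 7.16 in scramble cells and 8.23, 8.17 and 8.48 in knockdown cells on ILMN_3024068 (1.07 ± 0.12, limma, adjusted p = 0.00344), and its other probes changed by 0.52, past the threshold, and by -0.19, not past it. *Eef1a1* and *Pabpc1* followed at 0.92 and 0.85. Without background correction the percentile shift gave smaller rises of 0.65 for *Hnrnpa1* on ILMN_3024068, 0.42 for *Eef1a1* and 0.39 for *Pabpc1*. Under the percentile shift 13 of the 35 probes were higher (37.1%, against 18.3%), and without siDJ-1 replicate 1 or 3 the counts were 5 and 4 (14.3% and 11.4%, against 7.3% and 7.7%), and *Eef1d* lost its call without siDJ-1 replicate 1 (adjusted p = 0.0563).

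Of 3 tested probes for ribosomal proteins that carry other names, 1 was higher (33.3%, against 16.5% of all tested probes) and 0 were lower (0%, against 13.6%). At an unadjusted p under 0.05 (limma) there was 1. *Rack1*, the signalling scaffold of the small subunit, measured 10.58, 10.39 and 10.60 in scramble cells and 11.17, 11.09 and 11.28 in knockdown cells. All knockdown arrays were higher, by 0.66 ± 0.11 (limma, adjusted p = 0.00753). *Rpl36al* changed by 0.14 without passing the test.

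Genes that govern ribosomal protein output through mTOR and Myc gave 3 higher and 1 lower of 22 tested probes (13.6% and 4.5%, against 16.5% and 13.6% of all tested probes), with a median of -0.04 that became 0.00 under the percentile shift and -0.01 and -0.02 without scramble replicates 1 and 2. *Eif4ebp1*, the translational repressor that mTOR phosphorylates, measured 12.84, 12.70 and 12.93 in scramble cells and 13.39, 13.23 and 13.57 in knockdown cells (0.57 ± 0.13, limma, adjusted p = 0.0174). *Mtor* rose by 0.83 on ILMN_2563765 and had -0.18 on its other tested probe, which did not pass the test. *Tsc1*, an inhibitor of the pathway, rose by 0.46 on 1 of 3 probes, and *Mlst8*, a subunit of the mTOR complexes, fell by 0.40 on 1 of 3. No probe of this list passed the test without siDJ-1 replicate 1 or 3, and 2 and 1 were higher without scramble replicates 2 and 3 (9.1% and 4.5%, against 12.4% and 13.2%). *Mlst8* lost its call whichever array was left out (adjusted p from 0.0509 to 0.117), *Mtor* without any array but siDJ-1 replicate 2 (0.0524 to 0.0898), and *Tsc1* without scramble replicate 3 (0.0589). The *Mlst8* call was also lost under the percentile shift (0.0569). Without background correction that shift gave 0.17 for *Tsc1*, not past the threshold (adjusted p = 0.1495), and 0.51 for *Mtor*, past it.

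The mitochondrial ribosomal proteins, which serve the separate ribosome of the organelle, leaned the other way. Of 105 tested probes, 3 were higher (2.9%, against 16.5% of all tested probes) and 24 lower (22.9%, against 13.6%), with a median log2 fold change of -0.12 against 0.16 for the cytosolic set. The falls were led by *Mrps25*, *Mrps7* and *Mrpl20* (-0.84, -0.80 and -0.77) and the rises by *Mrpl9*, *Mrps30* and *Mrpl24* (0.47, 0.39 and 0.36). Under the percentile shift the counts were 7 higher (6.7%, against 18.3%) and 15 lower (14.3%, against 11.9%), and the median was -0.07. The number of lower probes was 7, 9, 12 and 15 without siDJ-1 replicate 1, siDJ-1 replicate 3, scramble replicate 2 and scramble replicate 3, and the 7 were 6.7%, against 6.9% of all tested probes. At most 1 probe was higher without scramble replicate 2 or any siDJ-1 replicate, and among the leave-one-out fits *Mrps25* kept its call only without scramble replicate 3 (adjusted p from 0.0509 to 0.137 in the others). The difference between the medians of these sets is a description and was not tested.

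**Figure D5:**
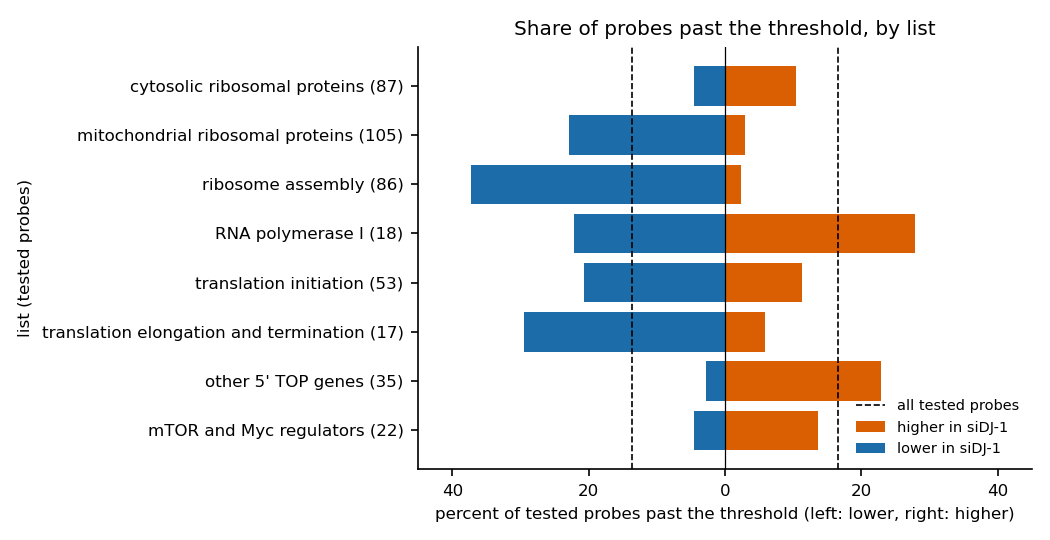
Percent of tested probes past the threshold as lower (left of 0) or higher (right of 0) in siDJ-1 cells (x axis) for each gene list (y axis, number of tested probes in parentheses), with dashed lines at 16.5% higher and 13.6% lower for all tested probes. After quantile normalization the cytosolic ribosomal proteins fall short of both lines, but not of the higher one under the percentile shift (47.1% against 18.3%), and ribosome assembly factors pass the line on the lower side.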

How the data were processed

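The authors deposited a table of probe intensity, not normalized and without background subtraction, with bead standard errors, bead numbers and a detection p-value per array. The deposited p-value compares each probe with negative controls. Background was corrected by normexp from the detection p-values (offset 16), followed by quantile normalization and log2 (limma 3.58.1, R 4.3.3). A probe was kept when 3 or more of the 6 arrays detected it (p below 0.05), and kept probes were fitted by lmFit and eBayes, with Benjamini-Hochberg adjustment over all 17890. Intervals are 95%. Target names were updated through RefSeq for 32345 probes. Alternatives were other background correction, scaling, filters, prior variance, array weights, a replicate block, gene means and leaving out each array. Named probes were up to 10 called rises and falls with non-overlapping groups, paralogues and partners, proteins with roles of their own, reference genes, and up to 3 called rises and falls of each other list. The members and lists were chosen with earlier results of these data known.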

Additional observations from a re-analysis of the deposited data

How the results depend on the processing

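Every called ribosomal protein probe kept its sign under the alternatives, but the count of higher probes did not hold. Against 9 higher probes and 11 called genes, quantile normalization without background correction gave 21 probes and 19 genes, the 75th percentile shift 41 and 33 (median change 0.36), that shift without background correction 54 and 45 (median 0.28), and a prior variance that follows the mean intensity 37 and 32. With no filter on dim probes, 2 of 102 probes were higher and 3 lower (2.0% and 2.9%, against 4.2% and 3.6% of all probes), and 3 genes were called. Over all 45281 probes 3519 passed (7.8%), in place of 5387 of 17890 (30.1%). Of the translation and ribosome assembly probes 65 passed in place of 101. Replicate numbers are shared between the groups, but deviations of equally numbered arrays correlated at 0.05, 0.05 and 0.02, so the numbers were not taken as pairs, although every array correlated best with its own number, a hint from the data and not from the design. With the replicate block, 4 ribosomal protein probes were higher and 3 lower (4.6% and 3.4%, against 13.2% and 11.1% of all tested probes). In that fit 5 genes were called, and 4350 probes passed in all. Leaving out 1 array gave 1 to 7 higher probes, 4 to 8 called genes, 2444 to 5302 called probes overall and 43 to 106 called translation and ribosome assembly probes. *Rps27l* turned from -0.06 to 0.13 and *Rplp1* from -0.12 to 0.10 under the percentile shift, and to 0.0753 and 0.0450 under that shift without background correction, never past the threshold. The cause of these differences was not tested. Of the values for single named probes, 808 kept their side of the threshold, 169 lost it and 17 gained it. *Park7* was lower in each fit.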

Other observations

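Probes annotated to ribosomal protein pseudogenes leaned the same way as the genes. Of 34 such probes 25 were tested, and 9 were higher (36%, against 16.5% of all tested probes) and 0 lower in *Dj1* knockdown cells (limma, 12 at an unadjusted p under 0.05), with a median log2 fold change of 0.27 and 1 negative value. The higher probe of *Rpl30-ps7* was detected on all knockdown arrays and on 0 scramble arrays, so it was tested only because of the knockdown group. The *Rpsa-ps1* probe measured 14.57, 14.64 and 14.45 in scramble cells and 14.97, 14.99 and 15.06 in knockdown cells, although neither probe of *Rpsa* was detected on enough arrays. Its log2 fold change was 0.45 (adjusted p = 0.0169). Whether these probes bind pseudogene RNA or the mRNA of the parent gene was not tested, and these probes were picked after the data were seen. The number of higher probes was 4 and 3 without scramble replicates 2 and 3 (16% and 12%, against 12.4% and 13.2%) and 1, 4 and 1 without siDJ-1 replicates 1, 2 and 3 (4.2%, 16.7% and 4.2%, against 7.3%, 11.7% and 7.7%). It was 17 under the 75th percentile shift (68%, against 18.3%), 5 with cyclic loess (20%, against 14.2%) and 3 with the replicate block (12%, against 13.2%).

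The S6 kinases, left out of the ribosomal protein set by name, were not uniform. *Rps6ka1* was higher on ILMN_2975718, with a log2 fold change of 0.83 (adjusted p = 0.00715), and its other probe, at 0.57, was detected on 1 scramble array and was tested only because of the knockdown group. *Rps6ka5* was higher on its only tested probe, at 0.75 (adjusted p = 0.0332). The tested probe of *Rps6kb1*, the main S6 kinase, measured 6.13, 7.52 and 7.30 in scramble cells and 5.85, 6.5 and 5.73 in knockdown cells. Its groups overlapped and its change of -0.96 did not pass the test (adjusted p = 0.108). *Rps6ka3*, *Rps6ka4* and *Rps6kb2* did not pass either, with changes of -0.01, 0.002 and -0.50 (adjusted p = 0.968, 0.992 and 0.520).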
